A study of Homo sapiens with 4 samples.

Results

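Gene expression of Caco-2 cells was compared between 2 supports, Transwell inserts coated with collagen and ordinary 6-well plates, both after 3 h in vehicle. Caco-2 is an established human colorectal adenocarcinoma line. The comparison took every gene with a single annotated symbol whose mean log2 intensity over the 4 arrays of the study lay at or above the 40th percentile of all probe sets, a floor of 4.84. This left 12900 of 18417 measured genes. Each side was 1 array hybridised with a pool of RNA from 3 samples, so the difference has no replicate check and no error of its own. The other 2 arrays held pools from the same 2 supports after 3 h with 2 mM cholate, the sodium salt of a bile acid, and were set beside the vehicle pair because they share no array with it. Caco-2 came from ATCC and was kept in DMEM with 10% fetal calf serum. Per the labels, the inserts measured 6.5 mm across and the wells 34.8 mm. During the 3 h the lower chamber of the insert held serum-free colourless DMEM. The cholate solution was a buffered salt solution free of calcium, and the sources used here do not give what the vehicle was made of. The labels give 21 days of differentiation for all 4 conditions, but the growth protocol gives 14 days for wells and 14 to 21 days for inserts, once electrical resistance was stable. Support, collagen coating, days of culture, well size and a second chamber therefore cannot be told apart in this comparison.

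Absorptive enterocytes line the gut with an apical brush border of microvilli that carries digestive enzymes and nutrient transporters, and they export fat, sugar, iron and bile acids across the basolateral membrane. Confluent Caco-2 cells stop dividing, polarise and switch on many of these genes, while keeping genes of the fetal gut and liver such as those for plasma proteins. A porous insert lets medium reach the basolateral side, which on plastic is sealed off. YAP and TAZ are transcription coactivators that respond to cell spreading and crowding. The immediate early genes respond to growth factors and stress within minutes.

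Both pools carried the RNA of epithelial cells. All 19 measured epithelial markers lay above the floor, among them EPCAM, a cell adhesion protein of epithelia, at 12.79 on the plate and 12.69 on Transwell. VIL1, the villin that bundles microvillar actin, read 11.39 and 11.40. Among markers of other cell types, 6 of 13 fibroblast and smooth muscle genes, 7 of 14 leukocyte genes and 3 of 10 endothelial genes lay above the floor, and none of them was 1.5-fold apart. Those under the floor in vehicle on both supports included PTPRC of leukocytes (2.93 and 3.00) and CDH5 of endothelium (4.41 and 4.62). DCN of fibroblasts (3.08 and 2.96) was another. They are single examples from their lists, and whether RNA of other cell types was present was not tested. In pooled RNA, fewer cells that express a gene and less RNA per cell cannot be told apart.

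Most genes read alike on the 2 supports. The median difference, Transwell minus plate in vehicle, was 0.02 log2, with a standard deviation of 0.30 over the 12900 genes, and 70.4% of genes lay within 0.25 log2 of zero. At least 1.5-fold higher on Transwell were 249 genes (1.93% of those above the floor), and at least 1.5-fold lower were 408 genes (3.16%). The counts for single lists below are to be read beside these 2 shares. At 2-fold there were 61 higher and 85 lower genes, and at 4-fold 5 and 2. The higher genes had a median level of 6.75 on the plate vehicle array and the lower genes 7.89, against 7.60 for all genes. Of the higher genes 222 were protein-coding, 10 were long noncoding RNAs and 5 were small nucleolar RNAs. Of the lower genes 399 were protein-coding. The cut has no natural gap, since 117 genes lay within 0.02 log2 of it on either side.

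The cholate pair set the same supports side by side on separate arrays. It had 518 genes at least 1.5-fold higher on Transwell (4.02%) and 484 lower (3.75%), so the higher genes outnumbered the lower ones there, the reverse of the vehicle pair. Of the vehicle calls, 238 of the 249 higher genes and 390 of the 408 lower genes had the same sign in cholate, 95.6% of each, whereas over all genes the share was 72.8%. At least 1.5-fold higher in both pairs were 153 genes (1.19% of those above the floor), and at least 1.5-fold lower in both were 238 (1.84%). No gene was 1.5-fold apart in opposite directions. The median difference of the higher genes was 0.73 log2 in vehicle and 0.69 in cholate, and of the lower genes -0.78 and -0.67. A further 22 probe sets belonged to 18 of the called genes. Of these, 6 carried the identical difference, and the other 16 had the same sign, 9 of them past 1.5-fold.

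The 2 plate arrays were not alike at part of these genes. At 140 of the 408 lower genes and 33 of the 249 higher genes, the plate cholate value lay nearer to Transwell vehicle than to plate vehicle. Of these, 30 lower genes and 1 higher gene were past 1.5-fold in the cholate pair too. Leaving all such genes out gave 268 lower and 216 higher genes, and the same count is given below for some of the lists. Vehicle and cholate were at least 1.5-fold apart on the plate at 495 genes (3.84%) and on Transwell at 141 (1.09%). Whether the plate vehicle array or the response to cholate on plates stands behind this cannot be told apart. ENPEP, SLC28A3, GJA5, KRT23, MUC15, GIP, ACTG2 and LAMA1, each the 1 lower member of its list, were among the 140, and CLOCK, the 1 higher circadian gene, was among the 33.

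**Figure D1:**
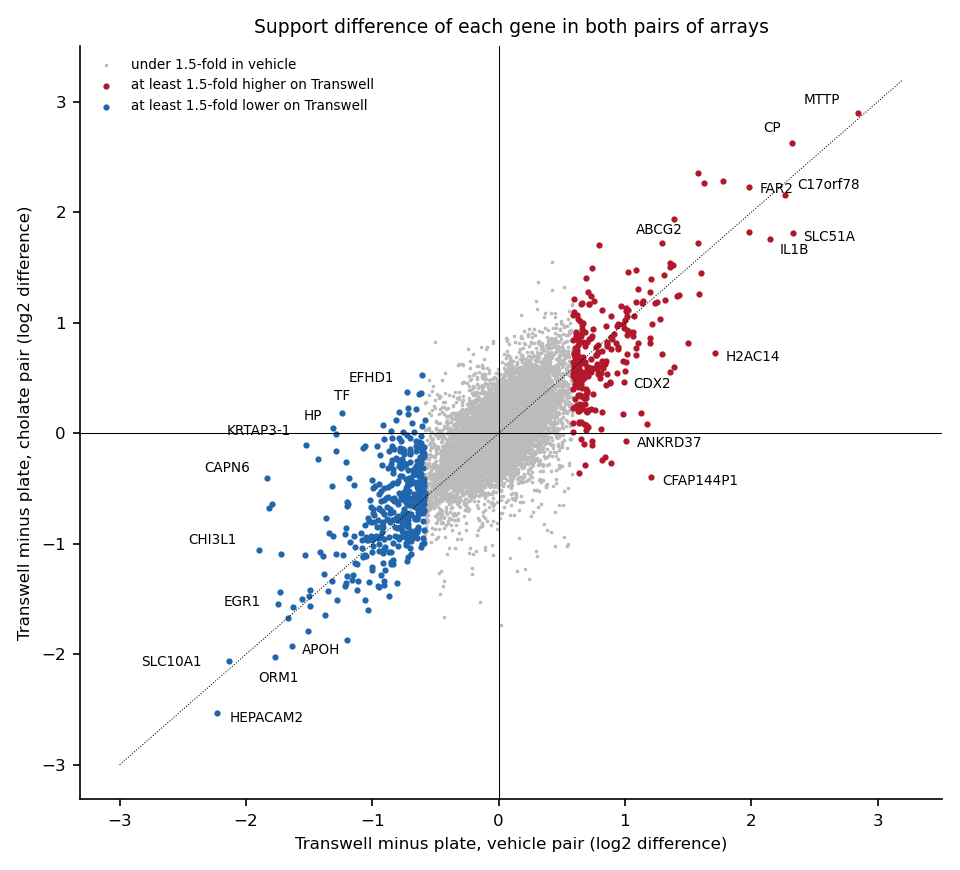
Transwell minus plate difference of the 12900 genes above the floor, in log2, in the vehicle pair (x axis) and in the cholate pair (y axis). Red points are the 249 genes at least 1.5-fold higher in vehicle, blue points the 408 lower, and the dotted line marks equal differences; most coloured points keep their sign, while TF, EFHD1, ANKRD37 and CFAP144P1 cross zero and HP, under the floor on 3 arrays, lies at zero.

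The largest difference of all belonged to MTTP, the microsomal triglyceride transfer protein that loads lipid onto apolipoprotein B to start chylomicrons. MTTP read 7.30 on the plate and 10.14 on Transwell in vehicle, and 7.36 and 10.27 in cholate. The Transwell pool was 7.17-fold higher in vehicle, the difference by which MTTP was picked, and 7.48-fold higher in cholate. FABP2, the intestinal fatty acid binding protein, differed by 1.03 log2 in the vehicle pair and by 1.46 in the cholate pair, from a plate vehicle value of 4.49 under the floor. APOA4, an apolipoprotein of chylomicrons, was higher by 0.77 and 0.78. In contrast, DGAT2, which makes triglyceride, stood at 9.74 and 8.83 in vehicle, a difference of -0.92, and at -1.08 in cholate. Of 26 genes of lipid absorption above the floor, 3 were 1.5-fold higher and 1 lower, each in both pairs, and the median difference was 0.03, or between -0.02 and 0.05 over the processing alternatives. APOA1 (-0.57) and APOC3 (-0.50), neighbours of APOA4 in one gene cluster, lay on the lower side and under 1.5-fold.

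Genes of the brush border were higher in part. CEACAM20, a microvillar adhesion protein, read 4.99 and 6.97 in vehicle and 4.86 and 6.68 in cholate, plate before Transwell. LGALS4, a galectin of apical lipid rafts, read 6.90 and 8.04 in vehicle and 6.88 and 8.06 in cholate. The microvillus list had 29 genes above the floor, of which 8 passed 1.5-fold upward and 0 downward, and 4 of the 8 were so in both pairs. The other 6 were NHERF4 (0.82), a scaffold of apical transporters, BAIAP2L2 (0.70), which bends membrane at microvillar tips, CDHR2 (0.69), a cadherin that links microvilli, the motors MYO7B (0.67) and MYO1A (0.63), and CEACAM1 (0.60). The median of the list was 0.02 in vehicle, between -0.02 and 0.04 over the processing alternatives, and -0.05 in cholate. So 27.6% of the list passed the higher cut, beside 1.93% of all genes, while the middle of the list lay where all genes did. This list, like the others, was chosen with earlier results of these data known, so its share is a description.

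Peptidases and mucins of the apical surface had members past the cut on both sides. XPNPEP2, which cleaves peptides before proline, read 6.22 and 7.29 in vehicle and 6.43 and 7.49 in cholate. NAALADL1 was higher by 1.04 and 0.92 log2, and ANPEP, aminopeptidase N, by 0.79 and 0.53. ENPEP, aminopeptidase A, read 9.26 and 8.60 in vehicle but 7.24 and 7.45 in cholate, so its sign turned. Of 9 peptidase genes above the floor, 3 were higher and 1 lower. Leaving out ANPEP and ENPEP, where plate cholate lay nearer to Transwell vehicle than to plate vehicle, left 2 higher and 0 lower. MUC17, a membrane mucin of the enterocyte glycocalyx, read 6.92 and 8.28 in vehicle and 6.86 and 8.40 in cholate. MUC3A (0.86 and 0.79), the trefoil peptide TFF1 (0.98 and 0.99) and ZG16 (0.86 and 0.54), a lectin of goblet cell granules, were also higher. MUC15, another membrane mucin, was lower at -1.06 and -1.51. In all 4 of 18 mucin and secretory genes were higher and 1 lower.

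Sugar digestion differed little. None of 11 disaccharidase and sugar transporter genes above the floor was 1.5-fold apart, and they spanned -0.40 to 0.46 log2. SI, the sucrase-isomaltase that marks enterocyte maturation, read 7.78 and 7.85 in vehicle. Amino acid transport differed in both directions. SLC7A9 and SLC3A1 encode the light and heavy chain of the apical cystine transporter. SLC7A9 read 7.78 and 9.38 in vehicle and 8.10 and 9.55 in cholate, and SLC3A1 read 6.99 and 8.19, then 6.95 and 8.23. Both chains were thus higher in both pairs. SLC38A4, a neutral amino acid transporter best known from liver, was lower by -1.79 in vehicle and -0.64 in cholate, with plate values of 8.77 and 7.65. SLC1A4 (-0.90), SLC1A1 (-0.75) and SLC7A7 (-0.63), the last a basolateral light chain, were lower in both pairs. Leaving out SLC38A4, where plate cholate lay nearer to Transwell vehicle than to plate vehicle, left 3 lower.

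**Figure D2:**
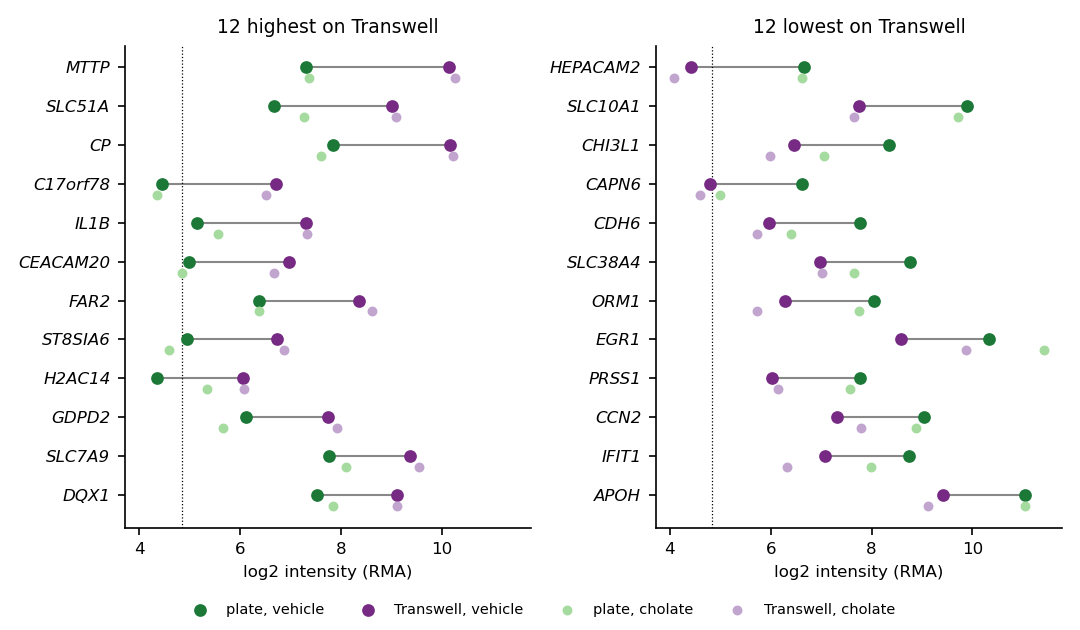
Log2 intensity (x axis, RMA) of the 12 genes with the most positive and the 12 with the most negative vehicle difference in each of the 4 arrays. Large points joined by a line are the vehicle pair, small points the cholate pair, and the dotted line is the floor of 4.84; MTTP spans 7.30 to 10.14, and HEPACAM2 lies under the floor on Transwell.

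Of 15 bile acid genes above the floor, 2 were higher and 3 lower, with a median of -0.17. SLC51A, the alpha chain of the basolateral exporter OST, read 6.69 and 9.02 in vehicle and 7.28 and 9.09 in cholate, a 5.04-fold difference in vehicle. SLC10A2, the ileal apical uptake carrier, was higher by 0.62 and 0.58 log2, from a plate value of 4.56 under the floor. SLC10A1, the sodium-dependent uptake carrier of hepatocytes, went the other way. Its values were 9.89 and 7.75 in vehicle and 9.72 and 7.66 in cholate, 4.40-fold lower on Transwell in vehicle. The bile acid sulfotransferase SULT2A1 was lower at -0.79 and -0.30. NR0B2, a repressor induced by the bile acid receptor FXR, was lower at -0.60 and -0.19, with a Transwell vehicle value of 4.77 under the floor. SLC51B, the beta chain of OST, stood at -0.26, under 1.5-fold.

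Sterol export and drug handling had single large members. ABCA1, which exports cholesterol to apolipoprotein A-I, read 8.70 and 7.32 in vehicle and 8.77 and 7.13 in cholate. VLDLR, a lipoprotein receptor, was lower by -0.71 and -0.41. In all 2 of 12 sterol transport genes were lower (16.7%, beside 3.16% of all genes) with none higher. ABCG2, an apical efflux pump for drugs and urate, read 8.94 and 10.52 in vehicle and 8.74 and 10.47 in cholate, 2.99-fold higher on Transwell. ABCB1, the efflux pump P-glycoprotein, stood at 0.54 and 0.56, just under the cut. SLC28A3, a nucleoside carrier, was the 1 lower gene of 16 in that list (-0.59). CYP1A1, the oxidase induced through the aryl hydrocarbon receptor, read 6.10 and 7.45 in vehicle and 5.75 and 7.26 in cholate. It was the 1 higher of 31 drug metabolism genes, and 7 were lower: EPHX1 (-0.84), SULT2A1, CES1 (-0.73), GSTA1 (-0.73), SULT1C2 (-0.66), GSTA2 (-0.64) and UGT2A3 (-0.59). The 7 are 22.6% of the list, beside 3.16% of all genes, and the 1 higher gene is 3.23%, beside 1.93%. GSTA1 and GSTA2 are near-identical, so their probe sets may read each other's RNA.

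Metal handling included CP, ceruloplasmin, a copper oxidase that helps iron leave cells. CP read 7.84 and 10.17 in vehicle and 7.60 and 10.24 in cholate, 5.01-fold higher on Transwell in vehicle. Of 24 genes of iron, copper and heme handling, 1 was higher and 4 lower. CYBRD1, the apical ferric reductase, read 6.97 and 5.96 in vehicle and 6.24 and 5.44 in cholate. HPX, which binds heme in plasma, was lower by -1.31 and -0.93. TF, transferrin, was at -1.24 in vehicle and 0.19 in cholate. HP, haptoglobin, read 5.97 in plate vehicle and lay under the floor on the other 3 arrays, between 4.66 and 4.78, so its vehicle difference of -1.31 starts from a single value above the floor and its cholate difference has no sign to read. For HP, TF and CYBRD1 plate cholate lay nearer to Transwell vehicle than to plate vehicle, though CYBRD1 was past 1.5-fold in the cholate pair as well. SLC11A2, the apical iron carrier, stood at 0.52 and SLC40A1, the iron exporter ferroportin, at -0.50.

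Genes for liver-type plasma proteins had more members past the lower cut than past the higher one. Of 35 above the floor, 13 were at least 1.5-fold lower and 4 higher, 37.1% and 11.4% of the list beside 3.16% and 1.93% of all genes. The list was chosen with earlier results of these data known, and these shares are a description. The median was -0.36 in vehicle and -0.22 in cholate. APOH, a phospholipid-binding apolipoprotein, read 11.05 and 9.41 in vehicle and 11.05 and 9.13 in cholate. ITIH2, a heavy chain of a hyaluronan-binding protease inhibitor, read 10.24 and 8.68, then 10.14 and 8.64. ORM1, an acute phase protein, read 8.04 and 6.28, then 7.75 and 5.72. In these genes the plate pools were higher than the Transwell pools under either treatment. ALB, albumin, was lower by -1.03 and -0.80, RBP4, the retinol carrier, by -1.11 and -1.33, AFP by -0.59 and -0.60, and the complement factor CFB by -0.96 and -0.95. Against these stood CP and C3, the central complement component, which was higher by 1.32 log2 in vehicle, from 9.68 on the plate, and read 9.75 and 10.96 in cholate. SERPINC1, antithrombin, was higher by 0.73 and 1.25, and IGFBP2, which binds insulin-like growth factors, by 0.86 and 0.83. Of the 13 lower genes 10 were lower by 1.5-fold in cholate too, and all 4 higher genes were higher there. Leaving out genes with plate cholate nearer to Transwell vehicle than to plate vehicle left 10 lower and 4 higher.

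Junction genes lay mostly a little below zero. Of 25 tight junction genes 20 were below zero and the median was -0.23, with -0.20 in cholate. CLDN2, which forms a cation and water pore, was the 1 higher gene, with 5.21 and 6.12 in vehicle and 5.28 and 6.17 in cholate. The 1 lower gene was AMOTL2 (-0.69 and -0.88), an angiomotin that also binds YAP. TJP1, the scaffold ZO-1, read 10.75 and 10.38. None of 30 genes of apical trafficking and polarity was 1.5-fold apart, with a range of -0.52 to 0.31. Among 26 genes of adherens junctions, desmosomes and gap junctions, GJA5, a connexin, was lower (-0.81) in vehicle, with 7.72 in plate vehicle against 5.67, 6.92 and 5.79 in plate cholate, Transwell vehicle and Transwell cholate. KRT23, a keratin, was lower by -1.08 and -1.04.

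Ion and water transport counted 3 higher and 4 lower genes of 34, 8.82% and 11.8% beside 1.93% and 3.16% of all genes. GUCY2C, the apical guanylin receptor that sets chloride secretion, read 9.32 and 10.34 in vehicle and 9.52 and 10.46 in cholate. S100G, the vitamin D dependent calcium buffer of enterocytes, was higher by 0.69 and 1.41. AQP3, a basolateral water and glycerol channel, was lower by -0.83 and -0.71. CA2, carbonic anhydrase, SLC23A1, a vitamin C carrier, and SLC20A1, a phosphate carrier, each stood at -0.64 in vehicle and at -0.77, -0.71 and -0.63 in cholate. SLC4A7, a bicarbonate carrier, was higher in vehicle (0.65) and stood at -0.05 in cholate.

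Among the transcription factors of gut and liver identity, CDX2 stood out. CDX2, the homeobox factor that specifies intestine, read 8.68 and 9.68 in vehicle and 8.92 and 9.48 in cholate, with a cholate difference of 0.56. VDR, the vitamin D receptor (0.69 and 0.08), MAF (0.69 and 0.35) and NR1I3, the receptor CAR (0.62 and 0.68), were the other higher genes of 30. NR5A2, which drives bile acid and crypt genes, was lower by -0.67 in each pair. The median of the list was -0.01, or between -0.04 and 0.07 over the processing alternatives. HOXB9 and HOXB7, positional homeobox genes of the hindgut, were at 1.09 and 0.70 in vehicle and at 1.48 and 0.83 in cholate. They were looked up after their values had been seen. All 4 HOXB genes above the floor lay above zero, with a median of 0.56, while 7 HOXC and 4 HOXD genes had medians of -0.14 and -0.04 and none was 1.5-fold apart.

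Stem cell and WNT target genes were lower where they passed the cut. LGR5, the receptor that marks crypt stem cells, read 8.18 and 6.80 in vehicle and 7.68 and 6.41 in cholate. PROM1, prominin, was lower by -1.05 and -1.11, TGFBI, a secreted adhesion protein, by -0.82 and -0.92, and DKK1, a secreted WNT inhibitor, by -0.78 and -0.60. These 4 of 21 genes were lower in both pairs and 0 were higher, with a median of -0.13. RNF43, which removes WNT receptors, stood at 0.58, just under the cut. The genes of the cell cycle and DNA replication lay close together, with none of 55 past 1.5-fold, a range of -0.46 to 0.38 and a median of -0.02.

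**Figure D3:**
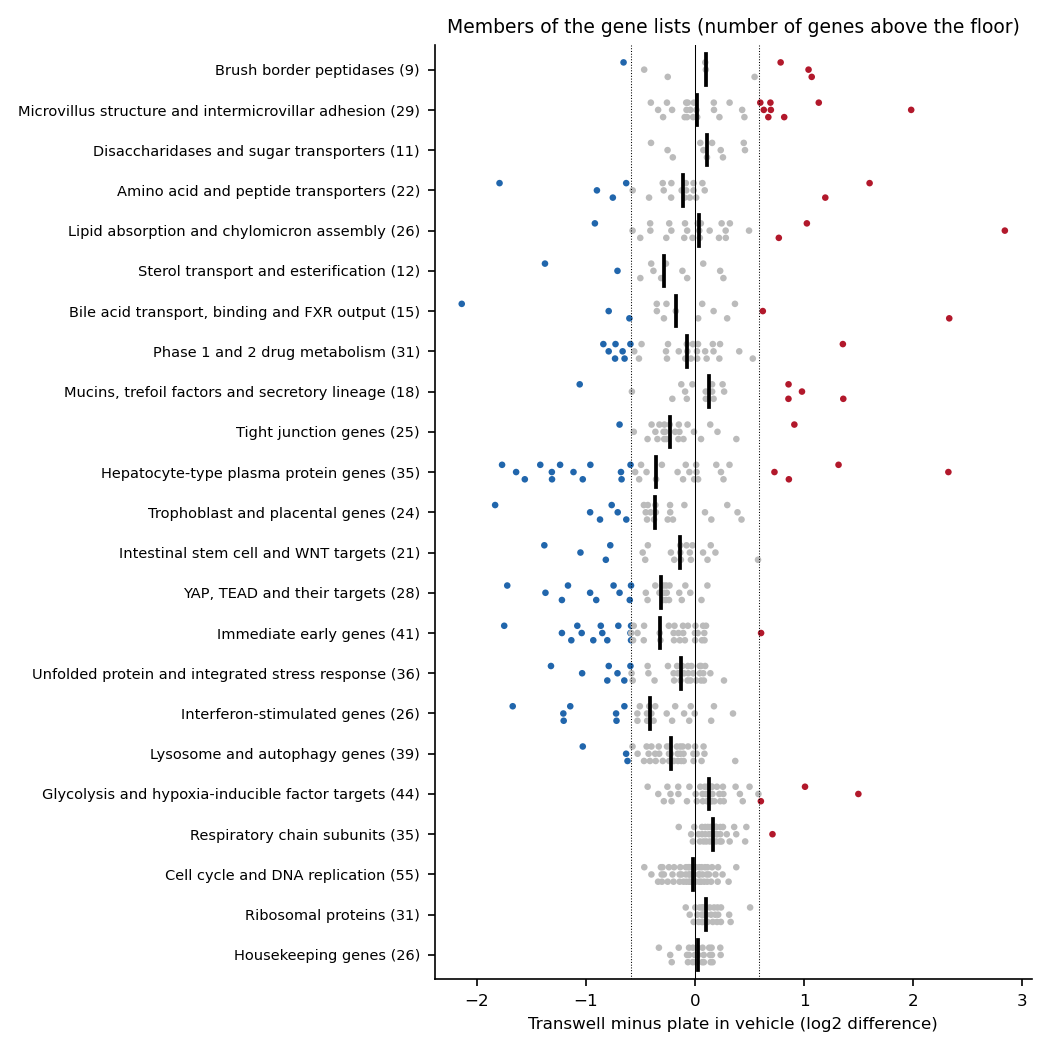
Transwell minus plate difference in vehicle (x axis, log2) of every member above the floor of 23 gene lists, with the number of members in brackets. Red and blue points are members at least 1.5-fold higher or lower (dotted lines), grey points the others, and black bars the medians; the bars of the plasma protein, trophoblast, YAP, immediate early and interferon lists lie between -0.41 and -0.31.

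Targets of YAP and TAZ with their TEAD partners lay mostly below zero. Of 28 above the floor, 26 lay below zero. At least 1.5-fold lower were 10 (35.7%, beside 3.16% of all genes) and 0 were higher. In both pairs 7 of the 10 were lower by 1.5-fold. The median was -0.31 in vehicle and -0.32 in cholate. CCN2, a matricellular protein and the most used YAP target, read 9.04 and 7.32 in vehicle and 8.89 and 7.79 in cholate. ANKRD1, a nuclear ankyrin protein, read 10.56 and 9.19, then 9.75 and 8.99. CCN1, sister of CCN2, read 7.98 and 6.76, then 8.00 and 6.62. For all 3 genes both plate pools were higher than both Transwell pools. WWTR1, which encodes TAZ itself, was lower by -1.16 and -1.33, and the TEAD cofactors VGLL1 and VGLL3 by -0.96 and -0.90, with -0.12 and -1.04 in cholate. THBS1 (-0.75), AMOTL2, PTPN14 (-0.60), a brake on YAP, and GADD45B (-0.59) completed the 10. At VGLL1, THBS1 and ANKRD1 plate cholate lay nearer to Transwell vehicle than to plate vehicle, and ANKRD1 was past 1.5-fold in cholate all the same. NT5E lay under the floor by its mean, with 3.85 and 4.98 in vehicle.

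TEAD proteins bind CATTCC, or GGAATG on the other strand. The CCN2 promoter from RefSeq is printed because this gene had the most negative difference of the list and holds 3 matches, in capitals, all on the reverse strand and starting 169, 104 and 95 bases before the start site. It is given 5′ to 3′ on the gene's strand, at chr6:131951323-131951622, minus strand, GRCh38.p14.
CCN2 promoter: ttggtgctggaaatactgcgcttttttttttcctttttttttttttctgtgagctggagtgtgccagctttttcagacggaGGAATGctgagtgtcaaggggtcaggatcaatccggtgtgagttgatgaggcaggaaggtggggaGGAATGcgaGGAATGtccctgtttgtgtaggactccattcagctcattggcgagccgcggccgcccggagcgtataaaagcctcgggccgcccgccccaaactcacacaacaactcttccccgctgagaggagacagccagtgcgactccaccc
Over promoters of the same length (250 bases before to 50 after the start), a match on either strand was held by 15.5% of 317 lower genes, 14.7% of 170 higher genes, 10.9% of 10236 genes above the floor and 14.1% of all 27305 promoters in the RefSeq table.

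Of 29 genes of matrix remodelling 6 were lower (20.7%, beside 3.16% of all genes) and 1 higher (3.45%, beside 1.93%). The higher gene was LOX (0.60), the collagen cross-linking enzyme. FBLN5, an elastic fibre protein, read 8.00 and 6.50 in vehicle and 7.89 and 6.42 in cholate. The lower genes besides FBLN5, TGFBI and THBS1 were SPARC (-0.79), MMP1 (-0.78) and LTBP1 (-0.75), with cholate differences of 0.19, -0.39 and -0.19. THBS1 is the 1 of these 6 that is also in the YAP list. Leaving out genes with plate cholate nearer to Transwell vehicle left 3 lower. Collagen, laminin and integrin genes, the partners of the coating, counted 2 higher (5.88%) and 1 lower (2.94%) of 34. ITGA5, the fibronectin receptor chain, was higher by 0.88 and 0.45 and ITGB8 by 0.74 and 0.94, while LAMA1, a laminin chain, was lower by -0.63 and -0.08.

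In cells that had received no bile acid, 13 of 41 immediate early genes above the floor were at least 1.5-fold lower. These are 31.7%, beside 3.16% of all genes. SPRED1 (0.61) was the 1 higher gene, and the median was -0.32. In cholate the median was -0.56, and 10 of the 13 were 1.5-fold lower there. EGR1, a zinc finger transcription factor, read 10.34 and 8.59 in vehicle and 11.41 and 9.87 in cholate. JUNB, a subunit of AP-1, read 8.27 and 7.13, then 9.03 and 7.86. DUSP1, a phosphatase that switches off stress kinases, read 10.45 and 9.41, then 10.88 and 9.92. In each treatment the plate pool was the higher one, and EGR1 in Transwell cholate still lay below plate vehicle. GADD45A (-1.08), HBEGF (-0.93), a ligand of the EGF receptor, TRIB1 (-0.86), NR4A1 (-0.85), ATF3 (-0.80) and DUSP6 (-0.70), a phosphatase of ERK, were also lower. CCN1, GADD45B, KLF6 (-0.59) and PPP1R15A (-0.59) made up the rest. Leaving out the gene with plate cholate nearer to Transwell vehicle left 12 of the 13.

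CArG boxes are the sites of serum response factor, and how many genes of the list hold one was not counted. EGR1 is printed as the lowest member of the list, with 2 CArG boxes in capitals that start 105 and 83 bases before the start site, at chr5:138465229-138465528, plus strand, GRCh38.p14, from RefSeq.
EGR1 promoter: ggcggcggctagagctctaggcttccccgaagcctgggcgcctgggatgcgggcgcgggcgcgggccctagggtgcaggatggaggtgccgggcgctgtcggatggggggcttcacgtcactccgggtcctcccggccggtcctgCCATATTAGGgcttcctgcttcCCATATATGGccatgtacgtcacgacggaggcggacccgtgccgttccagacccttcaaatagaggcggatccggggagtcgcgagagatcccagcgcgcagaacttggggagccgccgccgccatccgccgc
A CArG box was held by 2.21% of the lower genes, 2.35% of the higher genes and 1.16% of all genes above the floor, among those with a promoter in the table, and by 1.29% of all promoters. These are 7 lower and 4 higher genes, too few to compare.

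Of 36 stress genes that the amino acid and unfolded protein responses switch on, 7 were 1.5-fold lower and 0 higher. The 7 are 19.4%, beside 3.16% of all genes, and the median was -0.12. DDIT3, the factor CHOP, read 9.29 and 7.97 in vehicle and 9.92 and 8.58 in cholate. CHAC1, which degrades glutathione, read 7.50 and 6.47, then 8.66 and 7.06. NUPR1 stood at -0.79 and DNAJB9, a chaperone of the endoplasmic reticulum, at -0.65, while ATF3, VLDLR and PPP1R15A belong to other lists as well. PMAIP1, the apoptosis factor NOXA, was lower by -1.12 and -1.42, GDF15 by -0.73 and -1.16 and MCL1 by -0.60 and -0.53, the 3 lower of 33 p53 and apoptosis genes. The 3 are 9.09% of that list, beside 3.16% of all genes. Heat shock and antioxidant genes had no member past the cut among 17 and 30.

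Interferon-stimulated genes had a median of -0.41 in vehicle and -0.28 in cholate. Of 26 above the floor, 23 lay below zero. At least 1.5-fold lower were 7 (26.9%, beside 3.16% of all genes) and 0 were higher. In both pairs 4 of the 7 were lower by 1.5-fold. IFIT1, which binds uncapped viral RNA, read 8.74 and 7.07 in vehicle and 8.00 and 6.32 in cholate. IFI6, an interferon-induced membrane protein, read 10.83 and 9.63, then 10.35 and 8.48. IRF9, the DNA-binding part of the factor that interferons activate, read 8.07 and 6.86, then 8.09 and 6.74. On both treatments the Transwell pools were the lower ones. IFIT2 (-1.14), HERC5 (-0.72), OAS3 (-0.72) and IFIT3 (-0.65) had cholate differences of -0.46, -0.01, -1.12 and -0.48. IFITM1 and its neighbours IFITM2 and IFITM3, which block virus entry and of which the latter 2 were looked up after their values had been seen, were at -1.49, -0.86 and -0.94 in vehicle and -1.57, -0.27 and -0.20 in cholate, and their near-identical sequences mean that probe sets may read each other's RNA. Leaving out genes with plate cholate nearer to Transwell vehicle left 4 of the 7 list members. MX1 and OAS2 lay under the floor, as did CXCL10.

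The IFIT1 promoter holds 2 matches to the core of the interferon response element, GAAANNGAA, a motif added after these values had been seen. Both lie on the reverse strand and start 115 and 102 bases before the start site, so the capitals show its reverse complement, at chr10:89392373-89392672, plus strand, GRCh38.p14, from RefSeq.
IFIT1 promoter: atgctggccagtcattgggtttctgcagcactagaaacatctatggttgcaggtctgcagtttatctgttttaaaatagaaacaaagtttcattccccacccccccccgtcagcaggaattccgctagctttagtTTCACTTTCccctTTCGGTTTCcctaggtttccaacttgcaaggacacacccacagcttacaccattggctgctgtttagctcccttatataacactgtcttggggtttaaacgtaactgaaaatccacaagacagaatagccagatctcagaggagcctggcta
The motif was held by 7.89% of the lower genes with a promoter, 5.29% of the higher genes and 6.04% of all above the floor. Of all promoters 8.29% held it. Its share among lower genes thus lay above that of genes above the floor and below that of the whole table, and was not tested.

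Other inflammatory genes did not follow one direction. IL1B, the cytokine interleukin 1 beta, read 5.16 and 7.30 in vehicle and 5.57 and 7.33 in cholate, 4.42-fold higher on Transwell in vehicle. C3 and NOS2 (0.67 and 0.64), the inducible nitric oxide synthase, were the other higher genes of 32 in the NF-kappaB list. CFB, NFKBIZ (-0.74), a nuclear IkB protein, and IL1R1 (-0.67), the receptor of IL1B, were lower. TNFRSF9, a costimulatory receptor, was higher by 1.39 and 1.94, with a plate cholate value of 4.47 under the floor, and GSDMB, a gasdermin, by 1.43 and 1.25. CHI3L1, a secreted chitinase-like protein, was lower by -1.89 and -1.06, with plate values of 8.35 in vehicle and 7.05 in cholate.

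**Figure D4:**
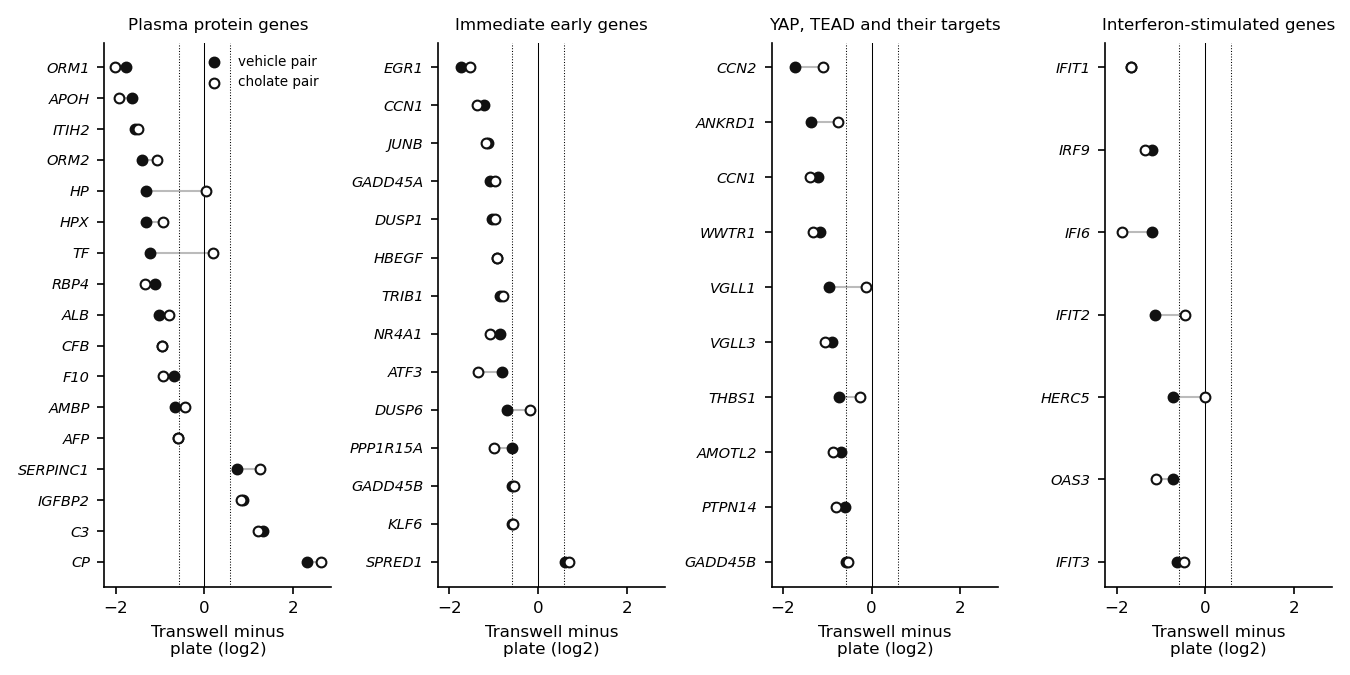
Transwell minus plate difference (x axis, log2) of the members at least 1.5-fold apart in vehicle of 4 lists, with filled points for the vehicle pair and open points for the cholate pair. Dotted lines mark 1.5-fold; EGR1, IFIT1 and APOH keep similar values in both pairs, while TF, VGLL1 and HERC5 come close to zero or cross it in cholate, as does HP, which is under the floor on 3 arrays.

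Genes of the respiratory chain and the ribosome lay mostly a little above zero. Of 35 respiratory chain subunits 31 lay above zero, with a median of 0.17 in vehicle and 0.18 in cholate and 1 gene past the cut, NDUFB3 (0.71). Of 31 ribosomal proteins 28 lay above zero, with a median of 0.10 in vehicle and 0.04 in cholate and none past the cut. By comparison, 52.8% of all genes lay above zero. Of 39 lysosome and autophagy genes 33 lay below zero, with a median of -0.22 in vehicle and -0.24 in cholate. LAMP3 (-1.03 and -1.34), the transcription factor MITF (-0.63) and cathepsin L, CTSL (-0.62), passed the lower cut. Among 44 genes of glycolysis and hypoxia 34 lay above zero in vehicle, with a median of 0.13, but the cholate median was 0.01. HILPDA, which coats lipid droplets in hypoxia, read 7.24 and 8.74 in vehicle and 7.60 and 8.41 in cholate. ANKRD37 was higher by 1.01 in vehicle and stood at -0.07 in cholate.

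Glucose and fat genes had a few large members. G6PC1, the last enzyme of glucose release, read 6.18 and 7.43 in vehicle and 6.19 and 7.38 in cholate. PCK1, an earlier enzyme of that pathway, was lower by -0.94 and -0.68. The paired arrestins ARRDC3 and ARRDC4, of which the latter is induced by glucose, were at 1.09 and -1.51. FAR2, which makes fatty alcohols, read 6.38 and 8.36 in vehicle and 6.39 and 8.62 in cholate. ELOVL7, a fatty acid elongase, was lower by -1.07 and -1.12 and SCD5, a desaturase, by -0.72 and -0.79. ACOX2, a peroxisomal oxidase, was higher by 1.02 and 1.06. Of 20 cholesterol synthesis genes only INSIG1 (-0.74 and -0.83), which holds back the pathway, passed the cut.

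Several genes at the extremes, HEPACAM2 to PRSS1 below, belonged to none of the 52 lists. HEPACAM2, an adhesion protein of the immunoglobulin family, read 6.65 and 4.42 in vehicle and 6.62 and 4.09 in cholate, so both Transwell values lay under the floor. C17orf78 was higher by 2.27 and 2.16, with plate values of 4.46 and 4.35 under the floor. PLB1, a phospholipase of the brush border, was higher by 1.41 and 1.24, SLC17A4, an intestinal anion carrier, by 1.31 and 1.44, and PALS2, a scaffold of lateral membranes, by 1.38 and 1.52. PRSS1, trypsin, was lower by -1.73 and -1.43, and its close paralogs may add to that signal. H2AC14, a replication-dependent histone gene, was higher by 1.71 and 0.73, with a plate vehicle value of 4.35 under the floor. Of 40 histone genes 3 were higher (7.5%) and 1 lower (2.5%), H2BC21 (-0.93), and the median was 0.16.

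Of 52 microRNA genes above the floor, 4 passed 1.5-fold upward (7.69%) and 3 downward (5.77%), beside 1.93% and 3.16% of all genes. Such probe sets can read the precursor or its host transcript rather than the mature RNA. The lower genes were MIR21, MIR221 and MIRLET7F1, and the higher ones MIR196A1, MIR194-1, MIR503 and MIR188. At MIR221, MIRLET7F1, MIR194-1 and MIR188 plate cholate lay nearer to Transwell vehicle than to plate vehicle. MIR188 also read 4.78 in plate vehicle, under the floor. MIR21, a microRNA raised in many tumours, read 10.52 and 9.52 in vehicle and 10.41 and 9.44 in cholate. MIR196A1, which lies beside HOXB9, read 4.89 and 5.99, then 4.94 and 5.76. MIR194-1, enriched in gut epithelium, was at 4.96 and 5.85 in vehicle and at 5.83 and 5.56 in cholate, so its sign turned. The mature sequences from RefSeq (GRCh38.p14) of the 4 genes with the largest vehicle differences are shown with the seed, bases 2 to 8, in capitals. No 2 of them share a seed.
miR-21-5p: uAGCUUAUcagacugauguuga
miR-221-3p: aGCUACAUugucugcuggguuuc
miR-196a-5p: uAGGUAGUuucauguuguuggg
miR-194-5p: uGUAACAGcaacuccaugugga
In vehicle these genes stood at -0.999, -0.99, 1.10 and 0.89 log2, and in cholate at -0.96, -0.69, 0.82 and -0.27.

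Of 24 genes of trophoblast and placenta above the floor, 6 were lower on Transwell in vehicle, 5 of them with plate cholate nearer to Transwell vehicle than to plate vehicle, and the median was -0.37 in vehicle and -0.35 in cholate. VGLL1 read 9.07 on the plate and 8.11 on Transwell in vehicle, and 7.23 and 7.11 in cholate. XAGE3 read 8.83 and 7.96, then 7.58 and 7.41, and CYP19A1, aromatase, 8.53 and 7.91, then 7.40 and 6.96. CAPN6, a calpain without protease activity, read 6.63 and 4.80, then 4.99 and 4.59, so both Transwell values lay under the floor. OLFML1, outside the lists and picked for its values, also differed between the plate arrays, with 7.50 in vehicle and 4.92 in cholate, and 6.21 and 4.91 on Transwell. For VGLL1, XAGE3, CYP19A1 and OLFML1 Transwell vehicle lay between plate vehicle and the cholate pools. The list was chosen with these data known, and its counts are a description. TFAP2C (10.25 and 9.80) and GATA3 (8.89 and 8.53), factors of trophoblast that some epithelia also express, were measured on both supports, while PSG1 (3.87 and 3.40) and CGA (5.20 and 4.32) lay under the floor by their means.

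The design allows 1 test of support, a limma model of support and treatment over all 4 arrays with 1 residual degree of freedom. It tests support over both treatments, not in vehicle alone. None of 19978 probe sets had a Benjamini-Hochberg adjusted p under 0.05, the smallest adjusted p was 0.0858, and 4519 had an unadjusted p under 0.05. Among the 12900 genes these were 1697 higher and 1411 lower on Transwell. MTTP had an estimate of 2.87 with a standard error of 0.09, and CAPN6, where the pairs differ, -1.12 with 0.37. Neither passed, and both were picked by vehicle values that are part of the estimate. The residual behind these errors is the difference between the vehicle and cholate pairs, not replicates. The count of 0 depends on the floor, on which features were tested and on the options of the model. Under 3 alternatives there were 293 to 1905 calls.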

How the data were processed

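RNA from 4 conditions of Caco-2 cells (2 supports, vehicle or cholate) was measured on 1 array each, of RNA pooled from 3 samples. The authors deposited log2 intensities. RMA is the only tool that the submitters' processing notes name. It makes array distributions alike, which hides a difference common to most transcripts, and it compresses differences near background. The sources used here give neither its version nor the build of the probe sets.

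Genes were named from the platform annotation through a RefSeq table (GRCh38.p14). Of 33297 probe sets, 19460 had 1 symbol, 1754 several and 12083 none listed. The probe set with the highest mean stood for a gene. Differences are Transwell minus plate, counted from 1.5-fold (0.585 log2). The genes named were the 25 highest and 25 lowest, the 10 on each side whose cholate sign differed, and members of 52 lists. Members and lists were chosen with earlier results of these data known. The lists cover 169 of the 657 genes past the cut. limma 3.58.1 in R 4.3.3 (lmFit, eBayes, additive model, 1 residual degree of freedom, prior 2.83) was tested on simulated data. The median of the arrays lay between 5.64 and 5.73. With 1 array a side, the number of arrays limits the precision. Between probe sets of one gene, the vehicle difference varied by a standard deviation of 0.145 log2, with probe sets of identical value included. Motifs were searched on both strands. Besides the TEAD, CArG and interferon motifs, the search covered HNF1, HNF4, CDX, GATA, AP-1, hypoxia, sterol and CCAAT motifs. The shares of these others are not given here, and no share was tested. Alternatives covered normalization, floor, probe set choice, fold, the cholate pair and the model.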

Additional observations from a re-analysis of the deposited data

Results flagged for a closer look

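Of the 657 genes past the cut in vehicle, 8 stood on opposite sides of zero in the vehicle and the cholate pair by more than 0.25 log2 each. The difference between the pairs was not tested, since each pair is 1 array a side. CFAP144P1, a pseudogene, stood at 1.21 in vehicle and -0.39 in cholate. MIR194-1 stood at 0.89 and -0.27, and the pseudogene FAM86B3P at 0.68 and -0.28. SNORD44, a small nucleolar RNA, stood at 0.63 and -0.36. EFHD1, a mitochondrial calcium-binding protein gene, stood at -0.73 and 0.37. MCUB, a subunit of the mitochondrial calcium channel, stood at -0.60 and 0.53, B3GALNT1, a glycosyltransferase, at -0.63 and 0.36, and KLK6, a secreted protease, at -0.62 and 0.37. B3GALNT1, KLK6, MCUB and SNORD44 were chosen after their values were seen.

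Probe sets without a listed gene were outside the comparison. Above the floor were 5198, of which 274 passed 1.5-fold upward on Transwell (5.27%) and 220 downward (4.23%), beside 1.93% and 3.16% of the named genes. What these probe sets measure was not tested.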

How the results depend on the processing

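The counts of 249 higher and 408 lower genes stayed within 1.5 times under median centring, quantile and loess normalization, both other floors and the mean over probe sets. They were 61 and 85 at 2-fold, the cholate pair had 518 higher and 484 lower genes, and leaving out genes with plate cholate nearer to Transwell vehicle than to plate vehicle, an alternative chosen after seeing the data, left 268 lower. The share with the same sign in cholate, 95.6%, was 91.9% with no floor, 98.0% with the floor at the 60th percentile and 97.3% at 2-fold. limma called 807 of 13319 probe sets with that floor and 293 of 19978 with the trend option. With the mean over probe sets it called 1905 of 12863 genes, a fit that also left out probe sets without a single symbol. The other settings gave 0 calls. The cause was not tested. List medians kept within 0.145 log2 of their value under the processing alternatives except in 5 of 52 lists, and the enteroendocrine and endothelial lists had no member above the higher floor. Of 206 named genes, 21 had the other sign in cholate: ANKRD37 (-0.069), CFAP144P1 (-0.39), DEXI (-0.073), EFHD1 (0.37), ENPEP (0.22), FAM86B3P (-0.28), FERMT2 (0.020), GJA5 (0.12), GPRASP3 (0.23), HP (0.044), MIR194-1 (-0.27), RMDN2 (-0.098), RNF144B (0.18), SERPING1 (0.072), SLC4A7 (-0.052), SNORD30 (-0.24), SPARC (0.19), SPATA31G1 (-0.21), TF (0.19), THAP3 (-0.11) and TMC5 (0.017). No condition was measured again, so no replicate could be left out. No paired analysis was possible because replicate numbers do not go beyond 1; treatment was a term of the limma model, which sets the supports side by side within it.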

Other observations

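Some of the 657 genes past the cut neighbour each other in the genome. In the order of 12888 placed genes there were 34 runs of 2 or 3 neighbours, 28 lower and 6 higher on Transwell, that held 73 of them. C4BPB, C4BPA and CD55, regulators of complement, were at -0.91, -0.76 and -0.80 in vehicle and at -0.73, -0.76 and -0.78 in cholate. C1S and C1R, the proteases that start the classical complement pathway, were at -1.22 and -0.93, and at -0.91 and -0.61 in cholate. A2M and PZP, related protease inhibitors of plasma, stood at -0.99 and -1.23, both in vehicle. PI3 and SLPI, antiproteases of mucosal surfaces, stood at -0.98 and -0.81 in vehicle. SLPI stood at -0.45 in cholate, and its plate cholate value lay nearer to Transwell vehicle than to plate vehicle. Neighbours among these pairs are often duplicates of one gene, so probe sets may read each other's RNA, and how many runs an unordered list would hold was not tested. The names were chosen after their values were seen.

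Complement genes thus lay on both sides, with C3 higher by 1.32 log2 in vehicle, and CFB (-0.96), C1S, C1R, C4BPA and SERPING1 (-0.92), the inhibitor of C1S and C1R, lower. SERPING1 stood at 0.07 in cholate.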
